A study of Mus musculus with 4 samples.

Results

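Unstimulated cells of the LysM-St18flox genotype were compared with unstimulated wild-type cells, each on 1 microarray, so that the comparison rests on 2 of the 4 arrays of the series. The other 2 arrays hold the same genotypes after 3 h with lipopolysaccharide (LPS), and serve here as a second pair that shares no array with the first. The cells of both genotypes came from the peritoneal lavage of mice injected with 4% thioglycollate, a sterile irritant that calls leukocytes to the peritoneum, and were collected after 3 days. They were kept in RPMI1640 with 10% serum. The labels call the cells peritoneal macrophages, while the sample titles read PEC, which commonly stands for the exudate cells of the peritoneum, of which macrophages are a part. Age, sex and strain, the number of mice behind an array, and whether the same mice gave the 0 h and the 3 h cells are not given in the sources used here. With 1 array in each group no difference below has a replicate check, and no test was made.

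LysM stands for the lysozyme M locus (Lyz2), whose promoter is widely used to drive Cre recombinase, and it is active in macrophages and in neutrophils. A flox allele has recognition sites of Cre around a stretch of the gene, which Cre then removes in the cells that make it. The St18 protein belongs to the MYT family of zinc finger transcription factors, known best from neural and endocrine cells. A thioglycollate exudate is led by macrophages that derive from blood monocytes, with resident peritoneal macrophages, neutrophils, eosinophils, lymphocytes and mast cells among them, and a lavage can carry mesothelial cells and blood.

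Values are log2 signals relative to the 75th percentile of the same array, so that 0 marks that percentile and a difference of 1 is 2-fold. A gene is given by its brightest probe, and it counted as measured when that probe was well above background on both arrays compared. Differences are LysM-St18flox minus wild-type throughout. The 75th percentile of the raw signal was 672 for wild-type cells and 1067 for LysM-St18flox cells at 0 h, and 755 and 882 at 3 h. Xist, the RNA that coats the inactive X chromosome in females, was well above background on the 4 arrays, and none of 9 probes for 6 genes of the Y chromosome was.

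The St18 signal differed in the direction of the labels. In wild-type cells 1 of the 2 St18 probes was well above background, at -1.31. In LysM-St18flox cells it was not, and read -4.54. As a bound, St18 signal was lower by at least 7.07-fold in the floxed genotype. At 3 h the same probe read -1.66 and -4.82. The other St18 probe did not exceed background clearly on any of the 4 arrays. The files give no probe sequence, so whether either probe lies in the floxed stretch is not known. Myt1l, another MYT family member, was well above background by 1 of its 3 probes in wild-type cells at 0 h (-1.18) and on no other array. Myt1, the third member, was not well above background at 0 h. Of the 3 nearest measured genes on each side of St18 in gene order, Atp6v1h, Rb1cc1, Pcmtd1 and Rrs1 differed by -0.03 to 0.13. That range is of the brightest probes, and second probes differed by 0.25 for Atp6v1h, -0.25 for Rb1cc1 and -0.59 for Pcmtd1. Rgs20 was 2.26-fold lower (-1.18) and Adhfe1 was higher by 2.21, and neither was past 2-fold at 3 h (0.12 and -0.00). Around Lyz2, which carries the LysM driver, the 6 nearest measured genes differed by -0.25 to 0.26.

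The unstimulated arrays measured 12679 genes, of which 385 (3.04%) were higher in LysM-St18flox cells by 2-fold or more and 384 (3.03%) were lower by 2-fold or more, together 6.07% of the genes. Under centring on the median of the array in place of the 75th percentile, the split was 289 higher and 678 lower, and the median of all genes moved from -0.03 to -0.18. Differences past 2-fold were more common among dim genes. Among 7702 genes whose mean signal over the 4 arrays was at or above 0, 99 (1.29%) were higher and 133 (1.73%) lower, while among the 4977 dimmer ones 286 (5.75%) were higher and 251 (5.04%) lower. Leaving out the genes of the cell type lists described below, the bright genes numbered 7580, of which 78 (1.03%) were higher and 124 (1.64%) lower. At 3 h the share of genes past 2-fold was 3.22% (420 of 13049).

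Many genes had a second measured probe, which gave a check on each difference within the same arrays. Of 4333 such genes, 130 were past 2-fold by the brightest probe, and for 39 of these (0.9% of the 4333) the second one passed 2-fold the same way, 22 higher (0.508%) and 17 lower (0.392%). For 102 of the 130 the second probe had the same sign, and for 4 it was past 2-fold in the opposite direction. Sp6, which encodes a transcription factor, read -2.58 by one probe and 2.68 by the other. Ikzf3, which encodes the lymphoid transcription factor Aiolos, read 2.61 and -3.12. The median gap between 2 probes of a gene was 0.35 at 0 h and 0.15 at 3 h. When each array was set against the other 3, the probes of a gene disagreed by a median of 0.39 in wild-type cells at 0 h, against 0.17 in LysM-St18flox cells at 0 h, 0.19 in wild-type cells at 3 h and 0.22 in LysM-St18flox cells at 3 h. The wild-type 0 h array thus had the largest disagreement of the 4, and every 0 h difference uses it.

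**Figure D1:**
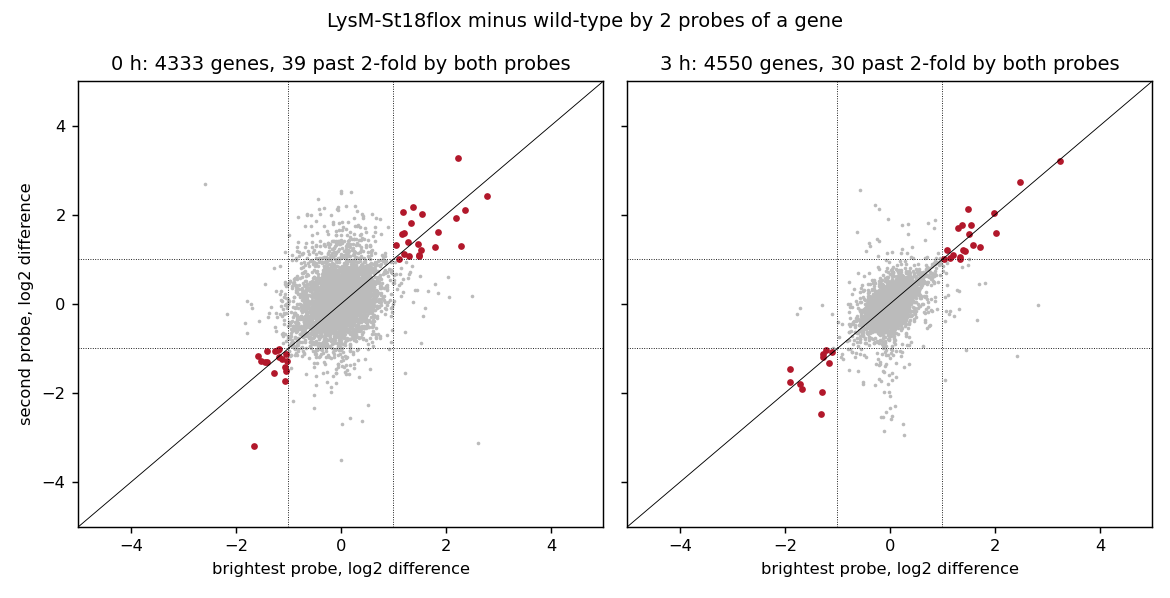
Log2 genotype difference by the brightest probe of a gene (horizontal) and by its second measured probe (vertical), at 0 h (left) and at 3 h (right). Red points are genes past 2-fold by both probes, 39 of 4333 at 0 h and 30 of 4550 (0.659%) at 3 h, dotted lines mark 2-fold, and the grey cloud is taller at 0 h, where the median gap between probes was 0.35 against 0.15.

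The 4 arrays together separate the genes past 2-fold at 0 h into patterns. Of 724 such genes that were also measured at 3 h, 159 were past 2-fold in the same direction at 3 h, with 103 higher and 56 lower, which is 0.834% and 0.454% of the 12344 genes measured on the 4 arrays. A further 9 were past 2-fold in the opposite direction at 3 h. For 263 genes (36.3%), the wild-type 0 h array stood at least 2-fold to one side of each of the other 3 arrays. In 187 of these 263, the LysM-St18flox 0 h array lay within 2-fold of both 3 h arrays. In 40 it was itself at least 2-fold to the same side of both, as a gene that changes with LPS and differs at 0 h must be, so for these the pattern adds nothing to the 0 h difference. For 82 genes (11.3%) the LysM-St18flox 0 h array stood apart in this way. The second probe agreed for 10 of 18 genes past 2-fold at both times, for 10 of 45 genes whose wild-type 0 h array stood apart, and for 5 of 17 whose LysM-St18flox 0 h array did. Across the 12344 genes, the difference at 0 h and that at 3 h had a Pearson correlation of 0.42. This describes genes, which are not replicates, and whether the pairs of cells came from the same mice is not stated.

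**Figure D2:**
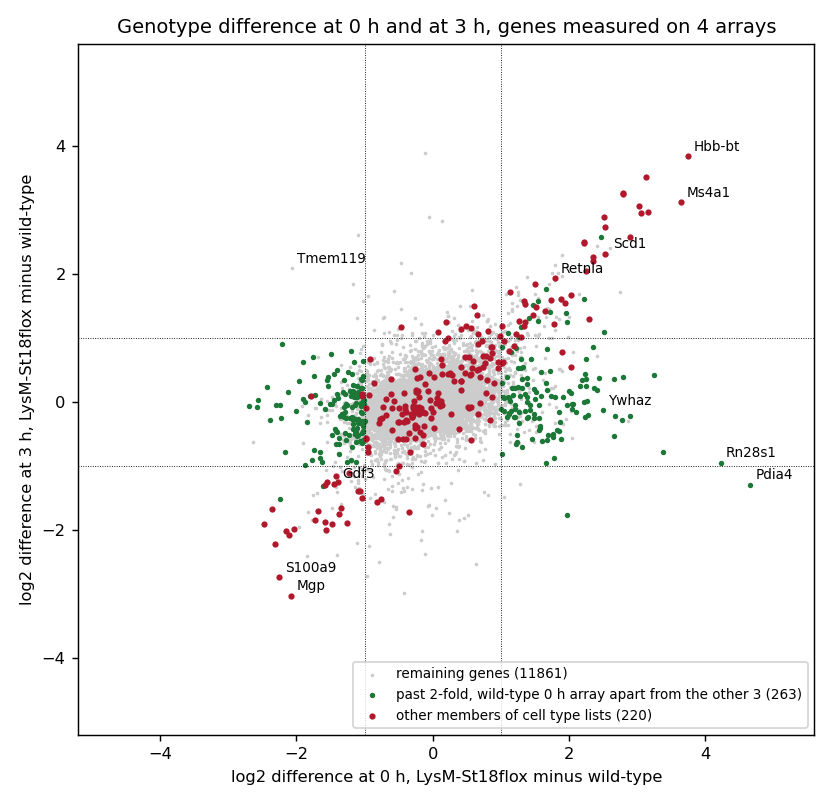
Log2 genotype difference at 0 h (horizontal) and at 3 h (vertical) for the 12344 genes measured on 4 arrays, with dotted lines at 2-fold. Other members of cell type lists (red) that are far from 0 run along the diagonal from Mgp and S100a9 to Ms4a1 and Hbb-bt, while the 263 genes whose wild-type 0 h array stood apart (green) lie mostly near 0 on the vertical axis, with Ywhaz, Rn28s1 and Pdia4 at the right.

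Markers of cell types were frequent among the genes that differed at both times. Of 234 measured genes in the cell type lists, 82 (35.0%) were past 2-fold at 0 h, against 687 of 12445 (5.52%) outside them. Of the 159 genes past 2-fold at both times, 64 were in these lists. The lists were chosen with earlier results of these data known, so these shares are a description and no test of the lists. In bulk RNA, fewer cells of a type and less RNA per cell cannot be told apart. List counts cover the members measured on both 0 h arrays, such as 25 of 29 B cell genes with a probe, 26 of 31 neutrophil genes and 26 of 39 mesothelial and fibroblast genes. Members above background in 1 genotype passed no such count, and their bounds reached 2-fold for 3 B cell genes (higher), 3 neutrophil genes (lower) and 1 mesothelial and fibroblast gene (lower).

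B cell genes were higher in LysM-St18flox cells. Of 25 measured members, 15 were at least 2-fold higher and none lower, with a list median of 1.88 against -0.03 for all genes. Ms4a1, which encodes the B cell surface protein CD20, read -1.82 in wild-type and 1.83 in LysM-St18flox cells, a 12.5-fold difference. Cd79b, a signalling chain of the B cell receptor, read 1.18 and 3.54. Of the 15 genes, 12 were also past 2-fold at 3 h, and the second probe agreed for 1 of the 3 that had one. Cd22 (-0.07) and Pax5 (-0.26), which are B cell genes too, did not follow. They are among 6 of the 25 members below 0, of which the lowest was at -0.99. The 9 members with a second probe had a median of 0.64 by the brightest probe and of 0.74 by the second. Mzb1, a chaperone of antibody-secreting B cells, was higher by 3.02 at 0 h and by 3.07 at 3 h.

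T and NK cell genes had a median of 0.89, with 13 of 28 at least 2-fold higher and 1 lower. Cd3d, a chain of the T cell receptor complex, read -2.01 and -0.53, and its second probe differed by 1.35. It was the 1 gene of 3 past 2-fold with a second probe for which that probe agreed, since Cd247 read 1.60 and -0.09 and Zap70 1.13 and 0.68 by their probes. Cd2, an adhesion receptor of T and NK cells, read 0.30 and 2.04. Cd3e differed by -0.17. Cd4 was lower by 1.04 on the log2 scale (-1.04) and differed by 0.10 at 3 h. Of the 14 genes past 2-fold, 10 were so at 3 h in the same direction, and the wild-type 0 h array stood apart for 3.

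Mast cell, eosinophil and haemoglobin genes were higher as well. Of 9 measured mast cell genes, 4 were at least 2-fold higher, led by the proteases Cma1 (-1.01 and 1.52) and Cpa3 (-1.29 and 0.95), and these 4 were past 2-fold at 3 h. Kit, the stem cell factor receptor of mast cells, differed by -0.24. Of 12 eosinophil genes, 5 were at least 2-fold higher, among them Siglecf (1.19), a surface lectin, Ccr3 (1.12), the eotaxin receptor, and Il5ra (1.52), a chain of the interleukin-5 receptor. Alox15 and Serpinb2 complete these 5, and both are counted again among the large peritoneal macrophage genes below. Of the 5, 2 were past 2-fold at 3 h (Il5ra and Alox15), while Ccr3 (0.81) and Siglecf (0.88) were not. The second Siglecf probe differed by 0.56 at 0 h. The granule protein genes Epx and Prg2 were not well above background. The haemoglobin genes Hba-a1, Hba-a2, Hbb-bt and Hbb-b2 were higher by 2.78 to 3.75 at 0 h and by 3.25 to 3.84 at 3 h. The second Hba-a1 probe differed by 2.42. These globin genes are near-identical in pairs, so their probes may not be separate. Of the other 9 measured erythroid genes, 1 (Gata1, a transcription factor shared with mast cells and eosinophils, 1.34) was past 2-fold.

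Neutrophil genes were lower, with 12 of 26 at least 2-fold lower, none higher, and a median of -0.82. S100a9 and S100a8, the calprotectin subunits, read 5.64 and 4.06 in wild-type and 3.39 and 2.32 in LysM-St18flox cells. Trem1, an activating receptor of neutrophils and monocytes, read 2.71 and 1.13, and its second probe differed by -1.17. Of the 11 that were measured at 3 h, 10 were at least 2-fold lower there. The list was not uniform, since Retnlg (0.81) and Csf3r (0.69), also neutrophil genes, were above 0 and Mmp8 was at 0.01. Macrophages also express several members of this list. LysM-driven Cre is active in neutrophils as well as in macrophages.

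Mesothelial and fibroblast genes were lower, with 14 of 26 at least 2-fold lower, 1 higher and a median of -1.05. Mgp, a matrix protein, read -0.97 and -3.05. Col3a1, a fibrillar collagen, read 0.47 and -1.56. Msln, the mesothelial surface protein mesothelin, read -1.19 and -2.27, and the keratin Krt19 read -0.16 and -1.85. Of the 15 genes past 2-fold, 14 were measured at 3 h, and each of these was past 2-fold in the same direction there. Thy1, a lymphocyte and fibroblast marker, was the 1 member higher (1.02). Summed over a list's measured members, the signal was lower by 0.71 on the log2 scale (-0.71) for the mesothelial and fibroblast list. It was lower by 0.13 (-0.13) for the neutrophil list and by 0.28 (-0.28) for the macrophage list. The largest drop among the cell type lists was that of platelet and megakaryocyte genes (-0.93), with 7 measured members. The summed signal was higher by 0.40 for the B cell list, by 0.89 for the eosinophil list and by 2.05 for the erythroid list.

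**Figure D3:**
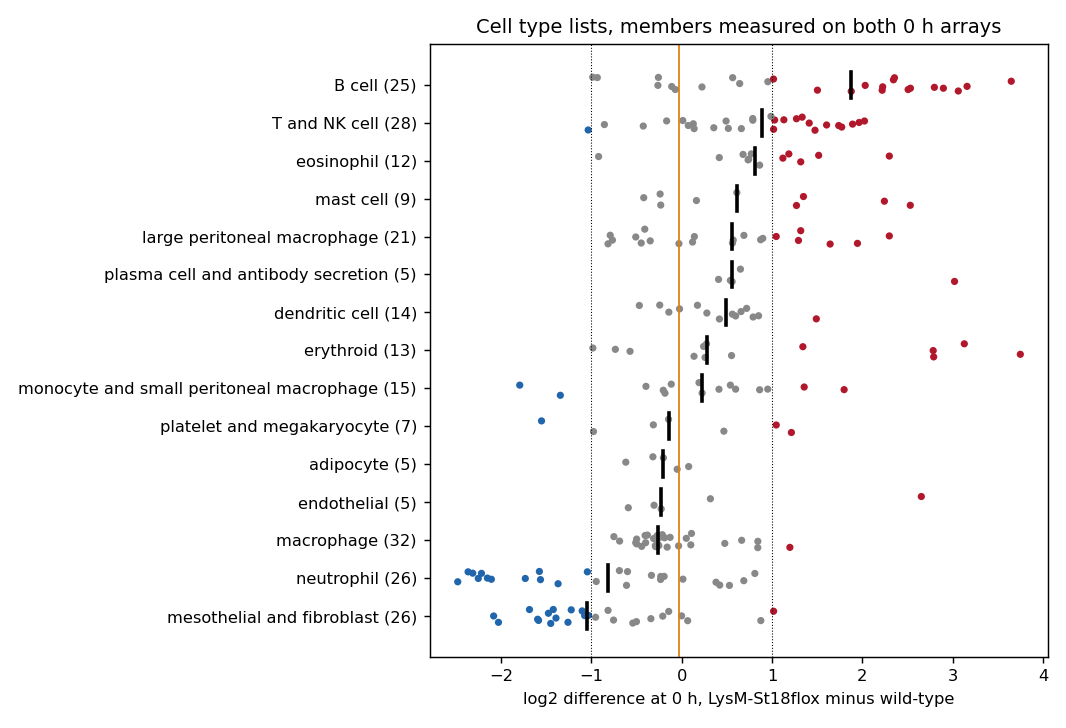
Log2 genotype difference at 0 h of each measured member of 15 cell type lists, sorted by list median (black bar), with the number of measured members in parentheses. Red points are past 2-fold upward and blue points past 2-fold downward in LysM-St18flox cells, the orange line is the median of all genes (-0.03), and the B cell list (median 1.88) and the mesothelial and fibroblast list (median -1.05) lie at the ends.

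The macrophage list itself had few members past 2-fold. Of 32 measured members, 1 was past 2-fold (higher), 24 were below 0, and the median was -0.27. Among all genes with a mean signal at or above 0, 1.29% were higher and 1.73% lower, so that count is near the general share. Csf1r, the receptor for the growth factor of macrophages, read 7.32 and 7.37. Adgre1, which encodes the surface antigen F4/80, read 5.90 and 6.01, and Cd68, a lysosomal membrane protein, read 8.28 and 7.78. These signals were well over 0 on both arrays, which puts the defining macrophage markers among the bright genes. Second probes did not follow the small shift. Over the 11 members that had one, the brightest probes had a median of -0.28 and the second probes one of 0.41, and the sign agreed for 8. The second probe gave 1.09 for Csf1r, 0.82 for Adgre1 and -1.06 for Itgam, against -0.28 for the brightest Itgam probe. Lyz2 was the member past 2-fold, at 4.83 in wild-type and 6.03 in LysM-St18flox cells. It read 6.30 and 6.07 at 3 h, so the wild-type 0 h array was the low one of the 4.

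Among genes of resident, or large, peritoneal macrophages, 6 of 21 were at least 2-fold higher and none lower, with a median of 0.56. Prg4, a lubricating glycoprotein, read -0.25 and 1.39, Tgfb2, a growth factor, read -2.49 and -0.55, and Alox15, a lipoxygenase that eosinophils also express, read -2.85 and -0.55. These 3 genes were past 2-fold at 3 h as well (1.43, 1.55 and 1.30). Gata6, the transcription factor that defines these cells, differed by 0.14, and the receptor Timd4 by 0.69. The 5 genes that had a second probe had a median of -0.51 by the brightest probe and of -0.55 by the second, with the same sign for each. Among genes of monocytes and small peritoneal macrophages, 2 of 15 were higher and 2 lower. Retnla, a secreted protein of alternatively activated macrophages, read 3.46 and 5.26, a 3.48-fold difference, and it was higher by 1.94 at 3 h. Plac8 was higher by 1.36. Hp, which encodes haptoglobin, was lower (-1.34), and Vcan, a proteoglycan, read -1.79 by its brightest probe and -0.65 by the second.

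MHC class II genes, whose products present antigen on B cells, dendritic cells and activated macrophages, were higher as a group. Of 16 measured members of that list, 7 were at least 2-fold higher and none lower, with a median of 0.88, and none of the 7 had its wild-type 0 h array apart. H2-Aa, the alpha chain of the A molecule, read 2.86 and 4.86, and its partner H2-Ab1 read 6.12 and 7.08, with a second probe at 0.96. Ciita, the coactivator that class II genes need, read 1.94 and 3.14, and its second probe differed by 1.60. H2-DMa (1.28) encodes a chain of the peptide loading factor, and H2-Ob (1.71) a chain of its inhibitor. Cd74, the invariant chain, was higher by 0.40. The lysosomal enzymes of the list, Ctss, Ifi30 and Lgmn, differed by -0.16, -0.50 and -0.32. For Ciita the LysM-St18flox 0 h array stood apart, at 3.14 against 0.83 to 1.94. At 3 h the list median was 0.91, and 6 of the 15 members measured at both times were at least 2-fold higher. Of the 7 genes past 2-fold at 0 h, 6 were measured at 3 h, and 2 of these were past 2-fold there. The B cell list was higher beside these genes (15 of 25, summed level higher by 0.40), the dendritic cell list had 1 of 14 higher with a median of 0.49, and the part of these cells in the class II difference was not tested. MHC class I genes had no member past 2-fold among 21, beside a share of 6.07% over all genes.

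Interferon-stimulated genes lay slightly above the other genes, with 39 of 54 above 0 and a median of 0.26, against 46.9% of all genes above 0. At 3 h, 50 of the 54 were above 0 with a median of 0.32, against 47.5% of all genes. The 5 members at least 2-fold higher at 0 h were the guanylate-binding proteins Gbp2, Gbp5 and Gbp7, which are GTPases that act on intracellular pathogens, the related GTPase Tgtp2, and Oas1g, a 2'-5' oligoadenylate synthetase. Oas1d, of the same family, was the 1 member lower (-2.70). The 5 higher genes were all higher at 3 h than at 0 h in both genotypes, and Tgtp2 alone of the 6 was also past 2-fold between the genotypes at 3 h. The wild-type 0 h array stood apart for all 6. It was the low one for the 5 higher genes, and for Oas1d it (0.45) stood above the other 3 (-2.25 to -1.76). For Gbp2, Gbp5, Gbp7 and Oas1g the LysM-St18flox 0 h array was itself more than 2-fold below both 3 h arrays. For these genes the pattern therefore adds nothing to the 0 h difference. None of the 6 had a second measured probe, and over the 17 list members that had one, the sign agreed for 9. Interferon-stimulated genes are switched on through the interferon-stimulated response element, bound by transcription factors of the interferon pathway. The form of this element searched for, GAAA and GAAA with any 2 bases between them, on either strand, occurred in the promoter of 29 of 47 genes of the list that matched the RefSeq promoter table (61.7%), and in 3.99% of the 27025 genes of that table, where a promoter runs from 250 bases before to 50 after the start of a gene. The promoters of the 5 higher genes all hold it. They are shown because these genes were chosen as the list members at least 2-fold higher at 0 h. The element is in capitals, and the sequences are from RefSeq on GRCm38.p6. Gbp2 lies at chr3:142620413-142620712 (+ strand), Gbp5 at chr3:142496684-142496983 (+), Gbp7 at chr3:142530086-142530385 (+), Tgtp2 at chr11:49064163-49064462 (-) and Oas1g at chr5:120887564-120887863 (-).
Gbp2: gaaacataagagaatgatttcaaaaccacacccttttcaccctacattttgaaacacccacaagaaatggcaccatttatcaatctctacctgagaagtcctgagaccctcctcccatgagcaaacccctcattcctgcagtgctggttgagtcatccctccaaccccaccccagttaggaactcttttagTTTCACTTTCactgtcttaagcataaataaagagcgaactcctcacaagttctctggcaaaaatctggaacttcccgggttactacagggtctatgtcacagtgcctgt
Gbp5: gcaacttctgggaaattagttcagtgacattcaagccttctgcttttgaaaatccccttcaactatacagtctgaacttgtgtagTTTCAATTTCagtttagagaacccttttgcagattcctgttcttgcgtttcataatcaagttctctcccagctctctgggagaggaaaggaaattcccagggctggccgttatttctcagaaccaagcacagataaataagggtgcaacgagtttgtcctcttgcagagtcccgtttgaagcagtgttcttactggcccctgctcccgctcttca
Gbp7: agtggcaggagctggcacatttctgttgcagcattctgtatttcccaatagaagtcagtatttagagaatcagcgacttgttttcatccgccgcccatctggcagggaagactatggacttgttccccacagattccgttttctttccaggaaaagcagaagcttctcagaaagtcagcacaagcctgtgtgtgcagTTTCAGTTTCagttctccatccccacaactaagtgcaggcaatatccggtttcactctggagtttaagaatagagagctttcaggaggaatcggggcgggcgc
Tgtp2: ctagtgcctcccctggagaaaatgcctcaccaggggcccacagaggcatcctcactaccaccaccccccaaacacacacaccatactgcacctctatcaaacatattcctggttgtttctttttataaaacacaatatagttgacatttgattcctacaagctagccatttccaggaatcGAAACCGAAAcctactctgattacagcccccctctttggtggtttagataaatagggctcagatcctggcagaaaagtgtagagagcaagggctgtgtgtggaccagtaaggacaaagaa
Oas1g: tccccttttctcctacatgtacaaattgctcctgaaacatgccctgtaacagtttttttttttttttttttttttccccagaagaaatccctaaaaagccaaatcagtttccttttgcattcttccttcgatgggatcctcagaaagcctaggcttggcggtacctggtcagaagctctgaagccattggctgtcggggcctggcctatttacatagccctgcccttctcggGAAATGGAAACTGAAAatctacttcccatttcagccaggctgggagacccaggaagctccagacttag
Each sequence is read 5' to 3' on the strand of the gene. The element lay on the opposite strand in the 3 Gbp promoters, so its reverse complement is in capitals there, and on the strand of the gene in Tgtp2 and Oas1g, where 2 overlapping matches form a single run in Oas1g. In Oas1g the first match ended 9 bases before the start of the gene, and the run in capitals goes on past it toward the start. The element ended 44 bases before the start of Gbp7, 50 before that of Gbp2, 61 before that of Tgtp2 and 156 before that of Gbp5. A match of letters describes the window and shows no binding. The 29 measured genes with the element had a median difference of 0.35, with 22 above 0, and the 14 measured genes without it had one of 0.22, with 9 above 0.

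Gbp2 read 0.66 in wild-type and 1.97 in LysM-St18flox cells, and 4.75 and 5.42 at 3 h. Gbp5 read -3.60 and -2.21 at 0 h. Tgtp2 read -1.36 and -0.07. Irf7, a transcription factor of the pathway, differed by 0.44 (second probe 0.95). Ifit1, Ifit3 and Isg15, which are usually among the most strongly induced genes of this kind, differed by 0.58, 0.35 and 0.39, and Ifitm3 was below 0 (-0.77).

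**Figure D4:**
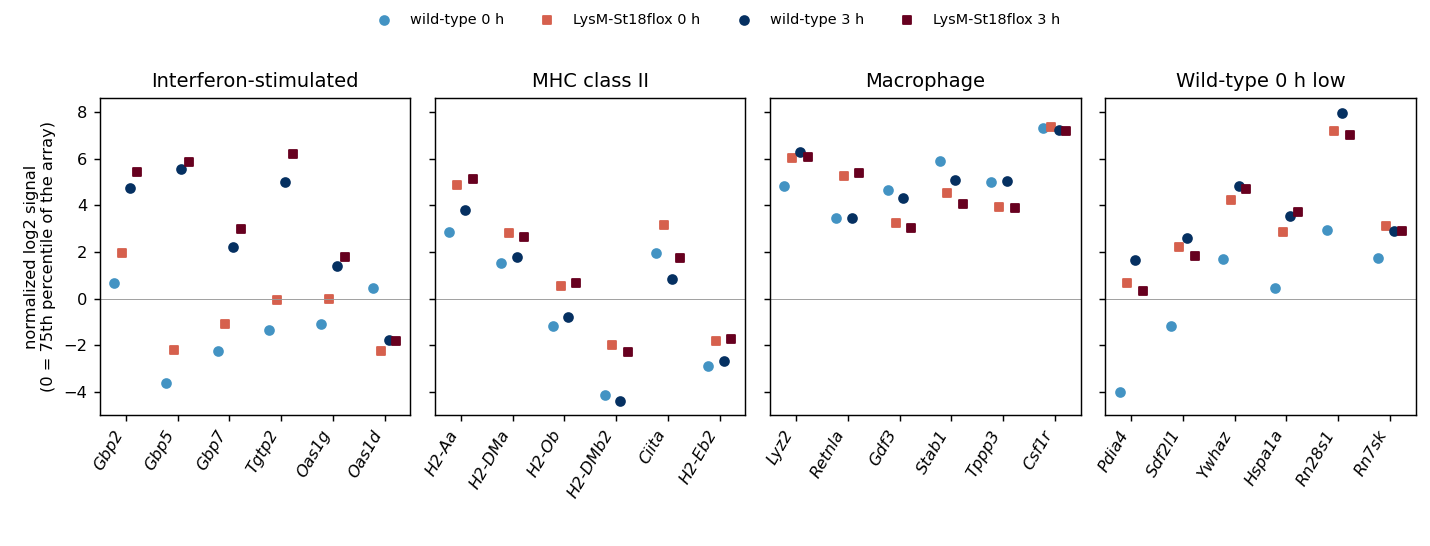
Normalized log2 signal of 24 genes on the 4 arrays, with circles for wild-type, squares for LysM-St18flox, light colours for 0 h and dark colours for 3 h. In the interferon panel, Oas1d aside, both 0 h points lie below both 3 h points, in the rightmost panel the light blue wild-type 0 h point stands below the other 3, and H2-Aa, Retnla, Gdf3, Stab1 and Tppp3 show the genotypes apart at both times.

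Other functional groups had medians close to that of all genes at 0 h. Of all genes 6.07% were past 2-fold, and of those with a mean signal at or above 0, 1.29% were higher and 1.73% lower. Beside these shares, a count of 0 or 1 member does not set a list apart from other genes. Of 69 ribosomal protein genes and 45 genes of the cell cycle, none was past 2-fold, and the medians were 0.01 and 0.05. Lysosomal genes had a median of -0.15 with 1 of 50 past 2-fold (Ctse, a protease, 1.05), and oxidative phosphorylation genes one of -0.00 with 1 of 60 past 2-fold. Phagocytic, scavenger and Fc receptors had a median of -0.24, with 1 of 31 past 2-fold. This was Stab1, a scavenger receptor of tissue macrophages, which read 5.90 in wild-type and 4.54 in LysM-St18flox cells and was lower at 3 h too (-1.01). Of 32 transcription factors of myeloid cells and 22 genes of cholesterol synthesis and uptake, none was past 2-fold. The cytokine and chemokine list, which LPS induces, had 1 of 22 measured members past 2-fold (Ccl5, 1.12 at 0 h and -0.17 at 3 h). The chemokines Ccl7 (-0.95), Ccl24 (-0.91), Ccl2 (-0.86) and Ccl9 (-0.74) were lower at 0 h without passing 2-fold. In all, 10 members were above 0 and 12 below, and the signal summed over the list was lower by 0.60 on the log2 scale (-0.60). Tnf read 1.36 and 0.86, Il1b read 0.45 and 0.23, and Ptgs2, the inducible cyclooxygenase, read -2.23 and -2.39. Il6 was not well above background in either genotype at 0 h. Vegfa, the vascular growth factor, read 3.02 and 3.31 by its brightest probe, while its other probes differed by 0.59, 0.12 and 2.07. Its receptor gene Flt1 read -3.19 and -0.53, with the wild-type 0 h array apart.

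**Figure D5:**
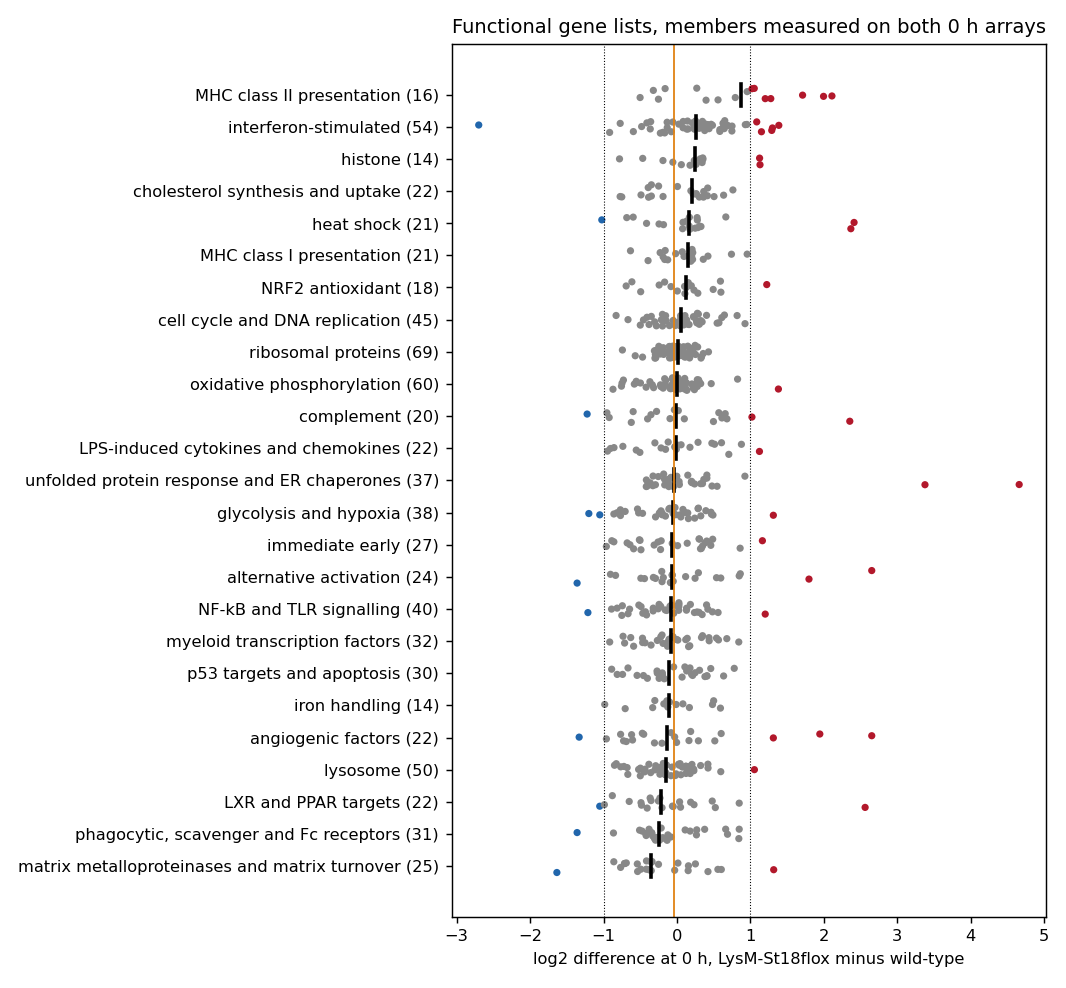
Log2 genotype difference at 0 h of each measured member of 25 functional gene lists, sorted by list median (black bar), with the number of measured members in parentheses. Red and blue points are past 2-fold, the orange line is the median of all genes (-0.03), the MHC class II list has the highest median (0.88), and the other medians lie between -0.35 and 0.26.

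Several of the largest differences were set by a low value on the wild-type 0 h array. Pdia4, a protein disulphide isomerase of the endoplasmic reticulum, read -3.98 in wild-type and 0.68 in LysM-St18flox cells, and 1.64 and 0.35 at 3 h. Sdf2l1, another protein of that compartment, read -1.17 and 2.21, and 2.61 and 1.84 at 3 h. The remaining 35 measured genes of the unfolded protein response were under 2-fold, with the chaperone Hspa5 at -0.41 (second probe -0.44), Hsp90b1 at -0.33 and the transcription factor Xbp1 at 0.41 (second probe 0.28). The endoplasmic reticulum stress element, CCAAT and CCACG with any 9 bases between them, on either strand, occurred in the promoters of 9 of 32 matched genes of this list against 0.137% of all genes, and the 8 of them that were measured had a median of -0.22. Neither Pdia4 nor Sdf2l1 is among those 9. The octamer ATTTGCAT, which binds OCT factors and their B cell cofactor, occurred in 1 of 23 matched promoters of the B cell list against 1.97% of all genes.

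Among 21 heat shock genes, 3 passed 2-fold, of which 2 were higher. Hspa1a read 0.45 and 2.86 and its neighbour copy Hspa1b -1.55 and 0.81, whereas Hsp90ab1 (-0.18), Hspd1 (0.08) and Dnajb1 (0.67) were under 2-fold, and the 2 Hspa1 copies are near-identical. Stip1, a cochaperone, was the lower one (-1.02), and for it the LysM-St18flox 0 h array stood apart, at 0.60 against 1.63 to 2.37. Among RNAs used to judge handling, the 28S ribosomal RNA probe of Rn28s1 read 2.95 in wild-type cells at 0 h and 7.02 to 7.97 on the other 3 arrays. Rn7sk, a small nuclear RNA, read 1.74 against 2.90 to 3.12. Ywhaz, an adaptor protein often used as a reference gene, read 1.70 and 4.21 by the brightest probe, and 0.17 separated the genotypes by the second. Gapdh, a glycolytic enzyme also used as a reference, was lower by 0.86 on the log2 scale (-0.86), and its other 5 probes read -1.11, -1.14, -0.79, 0.02 and 0.23. Actb differed by -0.29 and Ppia by 0.08. Neat1, a nuclear long non-coding RNA, was higher by 1.27 and by 1.39 in its second probe, and here the LysM-St18flox 0 h array stood apart, at 1.83 against 0.09 to 0.56. The part of RNA handling in these differences was not tested.

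Both checks were met by 10 genes, which were past 2-fold by 2 probes in one direction at 0 h and at 3 h, of 4325 genes with the values needed. Of these 10, 5 are in the cell type lists above, among them Cd3d, Hba-a1, Trem1 and Col1a1. The other 5 are in none of them. Gdf3, a growth factor of the TGF-beta family that macrophages express, read 4.65 in wild-type and 3.24 in LysM-St18flox cells, with the second probe at -1.06, and it differed by -1.27 at 3 h. Tppp3, a tubulin-binding protein, read 4.99 and 3.94 with the second probe at -1.50, and it differed by -1.16 at 3 h. Both genes were bright on the 4 arrays. Mgll, the lipase that cleaves monoacylglycerols, read -0.73 and 0.82 with the second probe at 2.02. Cxcr6, a chemokine receptor of T and NK cells, read -2.08 and -0.23 with the second probe at 1.60. Egr3, an immediate early transcription factor, read -1.21 and -0.04 with the second probe at 1.58, while the immediate early list had a median of -0.06 and no other member past 2-fold among 27.

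Other genes outside the cell type lists kept their difference at both times by 1 probe. Scd1, a fatty acid desaturase, read -3.46 and -0.90 at 0 h and was higher by 2.32 at 3 h. Inpp5j, a phosphoinositide phosphatase, read 0.27 and 2.07, and Rflnb read 0.10 and 1.77. On the lower side, Lrg1, a secreted glycoprotein that neutrophils also make, read 2.66 and 0.90, and Ifitm1, an interferon-induced membrane protein, read 1.73 and 0.16. Serpinh1, the collagen chaperone, read -0.13 and -2.10, and Fbln2, a matrix protein, read -0.27 and -2.04. Beside these genes, the neutrophil list was lower in 12 of 26 members and the mesothelial and fibroblast list in 14 of 26, and the part of those cells was not tested.

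Agreement of 2 probes did not go with a difference at 3 h for every gene. Aph1a, a subunit of gamma-secretase, had 4 measured probes at 0 h, which read -1.65, -3.18, -0.18 and -1.60, and its brightest probe differed by -0.33 at 3 h. Nfic, a transcription factor, read -1.40, -1.31 and -1.58 by 3 probes, at 4.77 in wild-type and 3.37 in LysM-St18flox cells by the brightest, and it differed by -0.46 at 3 h. Cd55, a complement inhibitor, was higher by 2.35, 2.10 and 1.51 by 3 probes and by 0.87 at 3 h. Apoc2, an apolipoprotein of macrophages, was lower by both probes (-1.05 and -1.13) and differed by -0.55 at 3 h. Cdkn2b, a cell cycle inhibitor, was higher by both (1.34 and 1.82) and by 0.86 at 3 h. H2-Q10, a class I gene with close relatives, had 4 probes at 1.80, 1.27, -0.75 and -2.37, which do not share a direction.

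Genes above background in 1 genotype were given as bounds. By this measure 310 of the 22911 genes with a probe were higher by 2-fold or more in LysM-St18flox cells at 0 h, and 222 were lower. At 3 h the balance was the other way, with 198 higher and 259 lower. Hbb-b1, a beta globin, was at least 11.7-fold higher, and it was higher at 3 h too (3.28). Ebf1, a transcription factor that B cells need, was higher by at least 2.38 on the log2 scale and Cd3g, a chain of the T cell receptor complex, by at least 2.40. The largest bound was that of Ces5a, a carboxylesterase, at least 17.3-fold higher, which read -0.03 on the LysM-St18flox 0 h array and -4.97 or below on the other 3 arrays, the same genotype at 3 h included. Fgf3, a growth factor, was at least 11.5-fold lower, and Emcn, an endothelial sialomucin, at least 10.8-fold lower, with each above background in wild-type cells at 0 h and at -6.31 or below on the other 3 arrays.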

How the data were processed

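Agilent 1-colour mouse arrays, 1 for each of 4 groups, were labelled with Cy3 from 100 ng of total RNA, per the labels. The deposited spot intensities came from Agilent Feature Extraction 11.0.1.1, per the submitters' processing notes, and are background-subtracted but not normalized between arrays, per the file headers. Each array held 59305 spots of 56605 probes, of which 52.2% to 55.6% of spots were well above background, and the number of arrays limits the precision. The deposited log2 value table (25482 probes, each column with a median of 9.58) served as an alternative. Its 4 columns hold the same sorted values to within 0.000362, as quantile normalization gives, but its normalization is not stated by the authors in the sources used here.

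Spots of a probe were averaged as log2, and the 75th percentile of the array was subtracted. Control, saturated and outlier spots were left out. Probe accessions without version were matched to the RefSeq gene table of GRCm38.p6. Of all probes, 32994 had 1 symbol (22911 genes) and 23611 had none here. The headers name another build, so that table gave names and gene order, and coordinates are those of the RefSeq promoters. For a bound, the bright value is set against the dim array's lowest value well above background, or against the dim reading itself where that is higher. The 43 lists, the rule for named genes (largest differences with a second probe, at both times, among bright genes, by list and by pattern, plus fixed genes) and the members were chosen with earlier results of these data known. Some list members were named after their values were seen, and a few genes within the rule are not reported here. Python 3.11.15 with pandas 2.3.3 and R 4.3.3 with limma 3.58.1 (normexp) were used, and the calculation was tested on simulated data.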

Additional observations from a re-analysis of the deposited data

Results flagged for a closer look

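Pdia4 differed in opposite directions at the 2 times. LysM-St18flox minus wild-type came to 4.66 (log2) without stimulation and to -1.29 after 3 h, and the difference between the times was not tested. The gene has 1 probe. It read -3.98 in wild-type cells at 0 h, and between 0.35 and 1.64 on the other 3 arrays.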

How the results depend on the processing

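Alternatives, 7 from the outset and 1 added after seeing the data, changed the counts more than the directions. With normexp background correction, 229 genes were 2-fold higher, 251 lower, 18 had an agreeing second probe and 96 were past 2-fold at both times. With no filter on signal over background these were 1473, 1347, 124 and 524, over 22908 genes. Median centring gave 678 lower genes, and a stricter filter on dim probes gave 253 higher ones. Without the genes whose wild-type 0 h array stood apart, which is the alternative added later, 249 genes were lower. Quantile normalization and the deposited value table kept each count within 1.5 times. With the mean of a gene's probes the second-probe count has no value, and 3 named genes turned sign, H2-Q10 (-0.014), Itgb3 (-0.17) and Sp6 (0.051), whose probes disagree. Of 145 named genes past 2-fold, 112 stayed so in one direction under each of the first 7 that gave them a value. List medians kept their sign under these 7 for B cell (1.07 to 2.03), T and NK cell (0.61 to 0.96), neutrophil (-0.96 to -0.67), mesothelial and fibroblast (-1.20 to -0.75), macrophage (-0.41 to -0.13), MHC class II (0.63 to 0.91) and interferon-stimulated genes (0.12 to 0.30). The medians of the ribosomal, cell cycle, lysosomal, oxidative phosphorylation, unfolded protein response, immediate early and cytokine lists, which lie near 0, fell on its other side under 1 to 4 alternatives. No paired analysis was possible because each group has 1 array.

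Differences between single arrays include mice, cultures, RNA and labelling, none of which can be told apart from genotype here. Repeated spots (10 per probe) varied with a median standard deviation of 0.03 to 0.04 within an array, which covers spot error alone. The gap between 2 probes of a gene at 0 h (median 0.35, and 1.03 at the 90th percentile) is larger, so a single-probe difference just past 2-fold is within the range that probes of one gene show.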

Other observations

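Genes past 2-fold at both times but in none of the cell type lists numbered 95, and some of them are known from the same cells. These were picked out after their values were seen. The lymphocyte GTPases Gimap1, Gimap3, Gimap4 and Gimap6 were higher by 1.84, 1.70, 1.90 and 1.40 at 0 h and by 2.01, 1.84, 1.96 and 1.06 at 3 h. Btla, an inhibitory receptor of lymphocytes, was higher by 1.96 and 1.40, and Ccr6, a chemokine receptor of B and T cells, by 2.41 and 2.44. Col5a1, a fibrillar collagen, was lower at both times (-1.09 and -1.01). Loxl2, a lysyl oxidase family member, read -1.08 and -1.11, but its second probe differed by -0.23 at 0 h. Adora3, an adenosine receptor found on mast cells and eosinophils, was higher by 1.56 and 1.07.

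Tmem119, a membrane protein best known as a microglia marker, also differed in opposite directions at the 2 times, by -2.07 at 0 h and 2.09 at 3 h. It read -0.14 and -2.22 at 0 h and -1.65 and 0.45 at 3 h in wild-type and LysM-St18flox cells. It has no second measured probe, and the difference between the times was not tested.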
